A study of Mus musculus with 20 samples.

Results

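The 40 genes described here are known for carrying a cell through mitosis and for parting its chromosomes. They were a fixed list of mouse genes, matched by symbol to the probes of an Illumina expression array, and the rule itself used no measured value, although the list was drawn up with earlier results of these data known. Of the 40, 39 had a probe (Ccnb1, cyclin B1, had none), out of 20255 genes with a probe in all. A gene was taken as measured where its brightest probe was above 7.12 on the log2 scale on at least 2 of the 20 arrays, which is 3 SD above the mode of the background. This left 32 of the 40, of which 28 were above that level on every array. Ccna2 was above it on 4 arrays, Ncapg on 2, Racgap1 on 13 and Ube2c on 17. Ccnb2, Nek2, Bub1, Ttk, Cenpe, Kif20a and Smc2 were not well above background on any array, so no level is given for them.

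The study compared normal thymus with thymus grafts that keep up their own T cell production and with the T cell acute lymphoblastic leukemia (T-ALL) studied beside them. All arrays held total RNA from mice in vivo, prepared from cell suspensions or sorted cells. There were 4 thymus grafts at 10 weeks and 7 T-ALL, all labelled as an F1 cross of WB with B6/Ly5.1, and 3 further T-ALL of the same cross marked Rag-, a mark that the labels leave unexplained. Thymocytes of wild-type C57BL/6 mice were on 2 arrays and their splenocytes on 2, and splenocytes of WB hosts, whose genotype the labels do not give, were on 2. The labels give no treatment and no age of the mice. They do not say whether arrays of a label came from separate mice. The p-values below therefore set the difference between label means against the spread of arrays within labels. Part of that spread may be technical, and the number of arrays limits the precision. T-ALL 1 to 7 and the Rag- arrays 8 to 10 are named by the numbers in the labels.

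Mitotic genes are switched on together late in the cell cycle. Cyclin-dependent kinase 1, bound to A and B cyclins, starts mitosis with the Aurora and Polo kinases. The spindle checkpoint holds the sister chromatids together until every kinetochore is attached, and the anaphase-promoting complex with Cdc20 then lets separase cut cohesin. In the thymus, dividing cells are mostly early thymocytes and the blasts that follow a first successful receptor rearrangement, while most small double-positive thymocytes rest. In whole-tissue RNA, a lower level can come from fewer dividing cells or from less mRNA in each, and these cannot be told apart here.

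The promoters of these genes show what the list shares in sequence. In mammals, the CHR (cell cycle genes homology region) is bound by the MuvB complexes, which hold mitotic genes off in resting cells and, joined by B-Myb (Mybl2) and Foxm1, turn them on in dividing cells. CCAAT boxes, bound by NF-Y, usually lie near it. RefSeq promoters of build GRCm38.p6, from 250 bases before to 50 bases after the start of transcription, were found for 34 of the 40 genes, in 36 windows. A CHR, searched as TTTGAA or TTTAAA on both strands, was present in 32 of the 36 windows (88.9%), against 27.6% of all 32851 promoters. A CCAAT box, searched as CCAAT on both strands, was present in 86.1% against 37.4%, and both motifs together in 80.6% against 10.7%. An E2F site, searched as TTCCCGC or TTGGCGC or TTCGCGC or TTGCCGC on both strands, was in 16.7% of the windows, against 9.57% of all promoters. It was in 63.3% of the 30 promoters of S phase genes, a list of DNA replication genes used for comparison, where a CHR was in 26.7% and a CCAAT box in 53.3%. The 59 promoters of other mitosis genes lay between, with a CHR in 55.9%, a CCAAT box in 61.0%, both in 37.3% and an E2F site in 30.5%. Some windows of a gene overlap, and a match to 6 letters is a description, not a shown site.

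The windows below belong to the 5 members with the widest range of level over the arrays among those whose window holds both motifs and could be shown here. They show how short these matches are, while the window searched itself limits how far from the start a match can lie. Capitals mark matches to the CHR and to the CCAAT box on either strand, and each window is written in the direction of transcription. The Mki67 window is chr7:135716330-135716629 on the minus strand, and its CHR matches begin at -116 and -98 from the start of transcription. Kif23 lies at chr9:61946750-61947049 on the minus strand, with its CHR at 3. Aurka lies at chr2:172370521-172370820 on the minus strand, with matches at 18 and 33. Espl1 is at chr15:102296043-102296342 on the plus strand, with its CHR at -27. Kif4 is at chrX:100625815-100626114 on the plus strand, with its CHR at 20.
Mki67: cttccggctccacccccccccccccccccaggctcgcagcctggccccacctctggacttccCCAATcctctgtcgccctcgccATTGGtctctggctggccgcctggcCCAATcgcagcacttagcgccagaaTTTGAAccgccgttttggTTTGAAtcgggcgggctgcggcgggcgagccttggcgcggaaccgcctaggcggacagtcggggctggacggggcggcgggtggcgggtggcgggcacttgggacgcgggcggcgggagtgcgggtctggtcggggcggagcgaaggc
Kif23: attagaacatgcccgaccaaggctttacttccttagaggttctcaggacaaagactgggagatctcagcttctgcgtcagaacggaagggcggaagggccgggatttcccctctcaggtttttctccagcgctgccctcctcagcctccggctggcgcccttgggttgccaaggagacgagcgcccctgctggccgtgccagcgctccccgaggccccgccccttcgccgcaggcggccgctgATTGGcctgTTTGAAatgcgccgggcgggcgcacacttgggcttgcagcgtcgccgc
Aurka: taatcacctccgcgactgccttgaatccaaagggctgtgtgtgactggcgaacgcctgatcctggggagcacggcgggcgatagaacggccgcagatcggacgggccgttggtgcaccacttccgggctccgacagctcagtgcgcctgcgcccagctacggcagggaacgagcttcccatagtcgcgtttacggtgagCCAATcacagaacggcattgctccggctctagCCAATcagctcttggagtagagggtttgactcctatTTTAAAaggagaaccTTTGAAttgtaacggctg
Espl1: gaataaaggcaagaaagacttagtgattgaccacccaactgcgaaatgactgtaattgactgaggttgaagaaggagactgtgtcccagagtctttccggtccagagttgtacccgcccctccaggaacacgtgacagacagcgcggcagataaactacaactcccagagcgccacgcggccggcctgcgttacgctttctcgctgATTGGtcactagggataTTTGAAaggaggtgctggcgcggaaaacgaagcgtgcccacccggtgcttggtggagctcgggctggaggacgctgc
Kif4: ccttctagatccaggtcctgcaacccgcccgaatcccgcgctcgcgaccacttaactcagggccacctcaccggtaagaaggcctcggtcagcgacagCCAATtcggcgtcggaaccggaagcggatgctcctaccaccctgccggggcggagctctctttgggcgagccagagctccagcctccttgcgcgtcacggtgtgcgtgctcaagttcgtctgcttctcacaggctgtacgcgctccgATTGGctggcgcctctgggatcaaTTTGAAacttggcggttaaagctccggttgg
In Kif23, Espl1 and Kif4 the CCAAT box nearest to the CHR reads ATTGG and lies before it, at -7, -44 and -5.

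The 28 genes above background everywhere ranged in mean level from 7.60 for Cenpf to 13.50 for Cenpa. Levels of different probes are not comparable, so each gene was followed across arrays. The distance from its lowest to its highest array had a median of 1.52 log2 units, close to the 1.42 of all 6959 genes above background on every array. Mki67, the gene of the Ki-67 protein that coats mitotic chromosomes, had the widest range, 3.45, from 9.59 on T-ALL 1 to 13.04 on wild-type thymus 1. Cenpf had the narrowest, 0.72. Among the 28 genes, graft 4 was the lowest array for 9 and graft 2 for 8, while T-ALL 7 was the highest for 9 and wild-type spleen 3 for 6. No share over all genes was computed for these counts, so how unusual they are is not known.

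**Figure D1:**
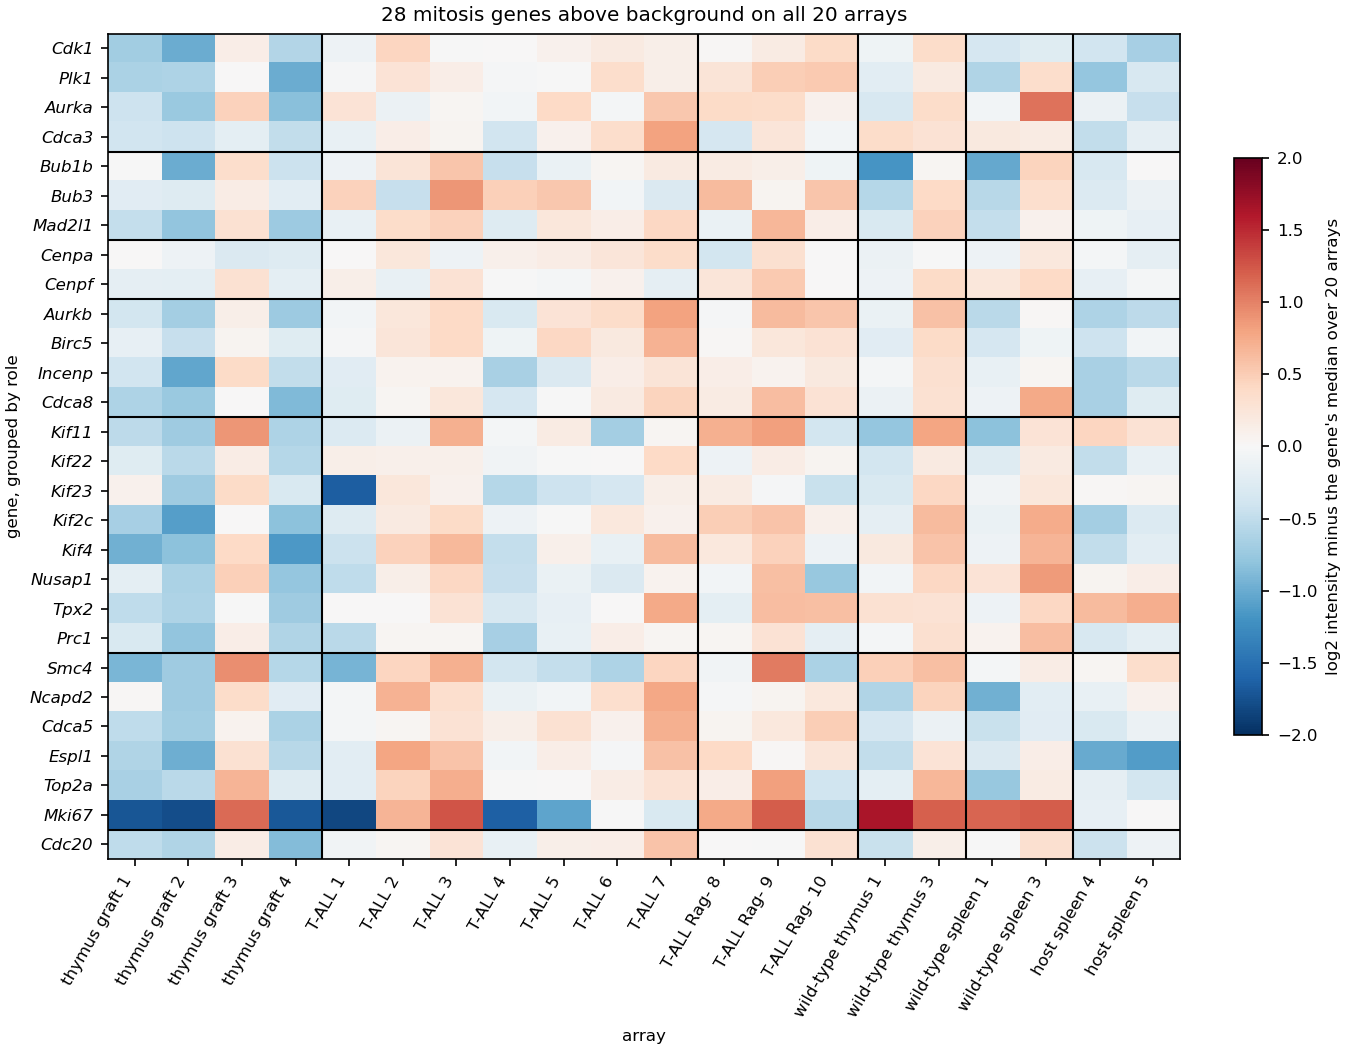
Each row is a mitosis gene above background on all 20 arrays, grouped by role, and each column an array, with colour giving log2 intensity minus the gene's median over the 20 arrays. Thymus grafts 1, 2 and 4 are low in nearly every row, thymus graft 3 is not, and Mki67 spans 3.45 log2 units.

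Averaged over the 32 measured genes, the 4 grafts stood at 10.06, 9.84, 10.71 and 9.91 log2 units. The 7 T-ALL stood at 10.23, 10.64, 10.76, 10.24, 10.45, 10.49 and 10.76, and the Rag- T-ALL at 10.58, 10.82 and 10.52. Grafts 1, 2 and 4 were the 3 lowest arrays of all 20, whereas graft 3 ranked 6 from the highest and lay inside the range of the T-ALL. Wild-type thymus stood at 10.32 and 10.80, wild-type spleen at 10.25 and 10.75, and host spleen at 10.23 and 10.34. Each wild-type pair thus held an array near the lower T-ALL and an array near the highest. Group means were 10.13 ± 0.40 (SD, n = 4) for the grafts and 10.51 ± 0.22 (SD, n = 7) for the T-ALL. The Rag- T-ALL averaged 10.64 ± 0.16 (SD, n = 3).

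Counting genes gave the same picture. Of the 28 genes, graft 1 was above the 20-array median in 3, grafts 2 and 4 in 0, and graft 3 in 25. Graft 3 was the highest graft in 27 of the 28, against 33.2% of the 6959 genes above background on every array. Grafts 1, 2 and 4 all lay below the T-ALL median in 27 of the 28, against 32.6% of those 6959 genes. Graft 2 lay below every T-ALL array in 24 genes, graft 4 in 20, graft 1 in 15 and graft 3 in 1. For these counts and those above the 20-array median no share over all genes was computed, so how unusual they are is not known. The S phase list, 28 of 30 measured, had the same split, at 10.13, 10.08, 11.00 and 9.91 on grafts 1 to 4 and 10.66 to 11.14 on the T-ALL.

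**Figure D2:**
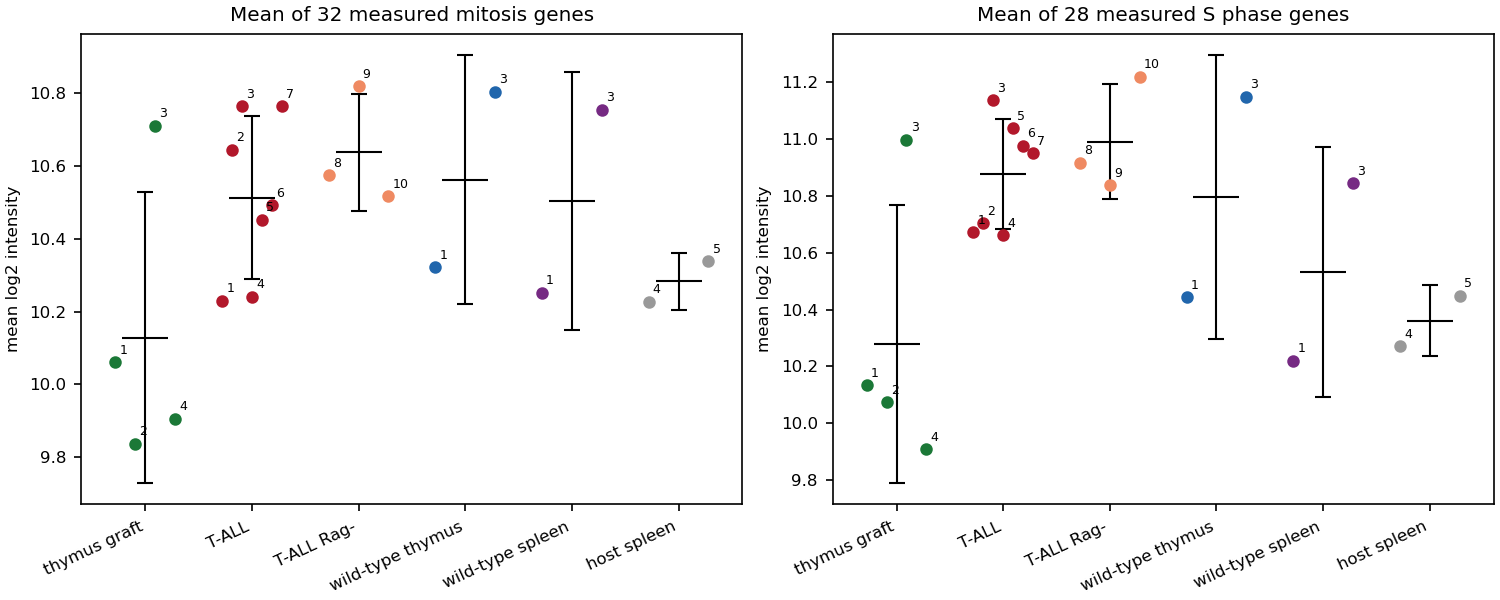
Mean log2 intensity per array of the 32 measured mitosis genes (left) and of 28 measured S phase genes (right), by label, with a line at the group mean and bars of 1 SD. Thymus graft 3 is at 10.71 in the left plot, among the T-ALL, and the other grafts are between 9.84 and 10.06.

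The cell makeup of the arrays differed too, and it moved partly with the mitosis genes. The erythroid marker list (11 of 16 genes measured, among them the globins Hbb-b1 and Hba-a1) averaged 7.57, 10.16, 11.40 and 7.63 on grafts 1 to 4. The macrophage list (13 of 13) averaged 7.01, 9.38, 10.50 and 7.03 on the same arrays, and the double-positive thymocyte list (11 of 12) 11.67, 11.05, 10.40 and 11.70. Graft 3 thus had the most erythroid and macrophage RNA and the least double-positive thymocyte RNA of the grafts, with a T cell receptor complex list (9 of 12) of 11.90 against 12.92 to 13.12 on the others. Graft 2, with an erythroid mean of 10.16 and a granulocyte mean (11 of 12 genes) of 10.72, had the lowest mitosis mean of all arrays. Within the erythroid list, Hbb-b1 stood at 14.85 on graft 2 and 14.94 on graft 3, and Alas2 at 12.59 and 12.52. Tfrc stood at 9.92 and 12.40 on the same arrays, Car1 at 7.89 and 11.45 and Klf1 at 8.11 and 10.14. Among the T-ALL, arrays 1, 4 and 5 had erythroid means of 8.72, 8.79 and 8.76 against 10.64 to 12.20 on the other 4, and they held the 3 lowest mitosis means. The part of these other cells in the mitosis values was not tested.

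Some arrays went against their labels. Wild-type thymus 1 had a T cell receptor complex mean of 8.79 and a granulocyte mean of 14.30, unlike thymocytes, and wild-type thymus 3 had 12.16 and 9.91. Wild-type spleen 1 had a granulocyte mean of 14.35. Host spleens 4 and 5 had double-positive thymocyte means of 11.70 and 11.48, as high as grafts 1 and 4, and wild-type spleen 3 had 10.62. Host spleens 4 and 5 also had thymic epithelium means (6 of 8 genes measured) of 8.04 and 8.21, the highest of all 20 arrays. The B cell list (7 of 10) averaged 8.13 and 7.38 on wild-type spleens 1 and 3 and 7.84 and 7.76 on the host spleens. On the grafts it averaged 7.54 to 7.64. The pancreatic acinar list (7 of 8 genes measured) averaged 9.84 and 9.88 on Rag- arrays 8 and 10 and 8.74 on T-ALL 7, against 6.77 to 6.94 on the other T-ALL and 6.92 on Rag- array 9. It was at 9.90 on wild-type thymus 1 and at 10.74 and 10.58 on the wild-type spleens. The arrays were kept as labelled, and the medians with single arrays left out are given in the comparisons that use them.

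**Figure D3:**
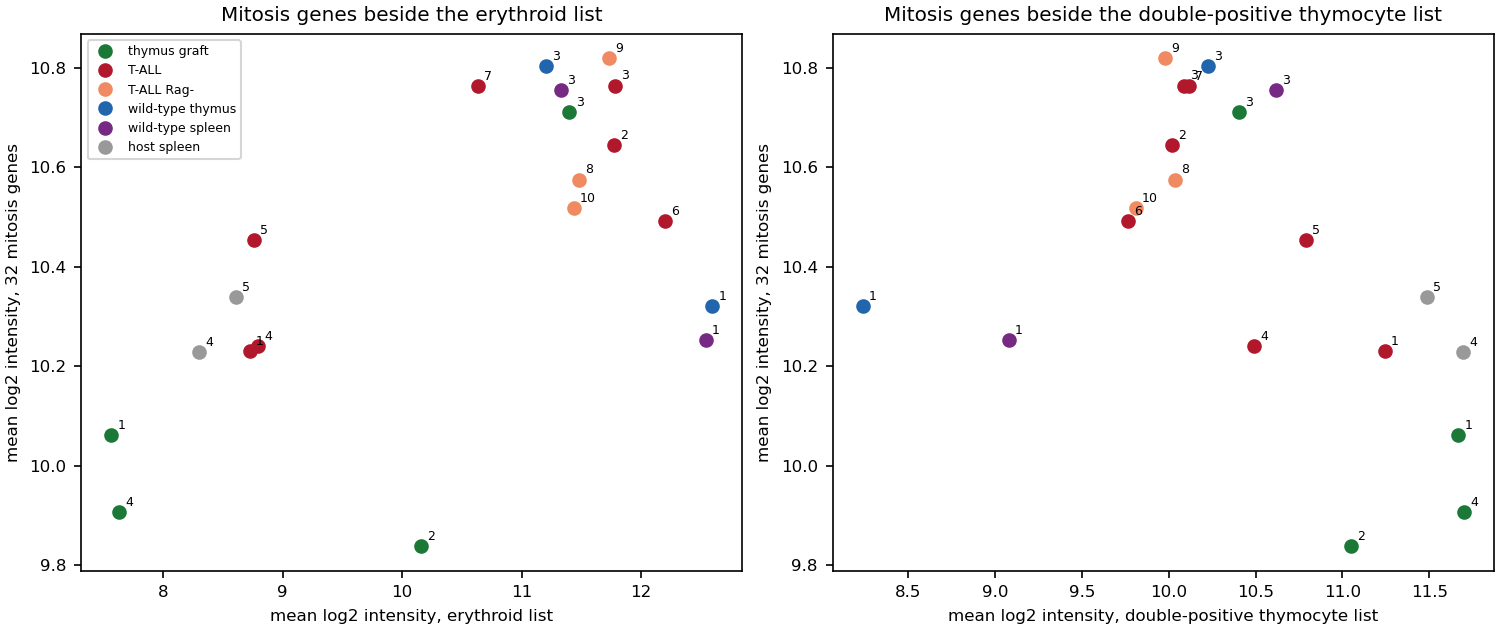
Mean log2 intensity of the 32 mitosis genes against that of the erythroid list (left) and the double-positive thymocyte list (right), 1 point per array, coloured by label and numbered as in the labels. Graft 2 has an erythroid mean of 10.16 and the lowest mitosis mean, 9.84, and graft 3 an erythroid mean of 11.40 and a mitosis mean of 10.71.

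In the comparison of T-ALL with thymus grafts, which asks how the leukemia differs from the graft thymus, 28 of the 32 measured genes were higher on average in T-ALL, with a median difference of 0.40 log2 units. None passed the test, limma's moderated test on all 20 arrays with Benjamini-Hochberg adjustment over 12710 genes: 0 of 32 had an adjusted p below 0.05, against 0.323% of all genes. By limma, 15 of the 32 had an unadjusted p below 0.05, all higher in T-ALL, against 7.64% of all genes. The median difference of all genes was 0.01, and 52.3% were higher in T-ALL. In every measured member the arrays of the groups overlapped, while 1.3% of all genes were higher on every T-ALL array than on any graft. Graft 3 lay within the range of the T-ALL in 21 of the 28 genes above background on every array, a count whose share over all genes was not computed.

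Among the kinases that drive entry into mitosis, Cdk1 stood at 10.77, 10.47, 11.61 and 10.89 on grafts 1 to 4. On the 7 T-ALL its lowest value was 11.37, its median 11.56 and its highest 11.90. Only graft 3 reached the T-ALL range, and T-ALL minus graft was 0.64 ± 0.18 (SE; adjusted p = 0.0893 by limma). Plk1, the Polo kinase of spindle assembly and mitotic exit, was at 10.66, 10.67, 11.30 and 10.31 on the grafts. Its T-ALL values had a lowest of 11.27, a median of 11.41 and a highest of 11.65. The pattern was that of Cdk1, with a difference of 0.68 ± 0.19 (SE; adjusted p = 0.0918 by limma). Aurka, the centrosomal Aurora kinase, differed by 0.53, and Cdca3, which helps degrade the mitosis inhibitor Wee1, by 0.50. Cdca3 kept graft 3 close to the other grafts, at 11.97 against 11.68 to 11.79. Ccna2, cyclin A2, was near background on nearly all arrays and differed by -0.01.

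In the spindle checkpoint, Mad2l1, the Mad2 protein that restrains Cdc20, was at 10.69, 10.38, 11.47 and 10.44 on grafts 1 to 4. The T-ALL ran from 10.91 over a median of 11.39 to 11.63, and the difference was 0.60 ± 0.23 (SE; adjusted p = 0.194 by limma). Graft 3 was again the only graft in the T-ALL range. Its partners Bub1b (BubR1) and Bub3 differed by 0.31 and 0.36. A second, dimmer probe of Bub1b gave 0.61, while that of Bub3 went the other way, at -0.11.

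Of the centromere genes, Cenpa, the histone H3 variant that marks the centromere, was the exception to the graft 3 pattern: graft 3 was the lowest graft. Its levels on grafts 1 to 4 were 13.51, 13.39, 13.20 and 13.23, and the T-ALL ran from 13.40 over 13.65 to 13.86, with a difference of 0.30 ± 0.12 (SE; adjusted p = 0.212 by limma). Its total range over the 20 arrays was 0.73. Cenpf, an outer kinetochore protein, differed by 0.08.

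All 4 members of the chromosomal passenger complex, which corrects faulty attachments and steers cytokinesis, were measured and higher on average in T-ALL. Its kinase Aurkb was at 10.45, 10.14, 10.94 and 10.09 on the grafts and had a lowest T-ALL value of 10.52, a median of 11.09 and a highest of 11.62. The difference was 0.66 ± 0.22 (SE; adjusted p = 0.143 by limma). Cdca8 (borealin) differed by 0.60, Birc5 (survivin) by 0.47 and the scaffold Incenp by 0.29. In Incenp, graft 3 was the highest of all 20 arrays, at 11.79.

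Kinesins and spindle proteins were the most uneven group. Kif4, a chromokinesin, had the largest difference of all members by their brightest probes, 0.74 ± 0.30 (SE; adjusted p = 0.208 by limma). It stood at 9.30, 9.43, 10.66 and 9.11 on the grafts, against a lowest of 9.78, a median of 10.35 and a highest of 10.91 on the T-ALL. Its 3 probes gave 0.74, 0.73 and 0.78. Kif2c, a kinesin that takes microtubules apart at centromeres, differed by 0.71, and Tpx2, which activates Aurka on the spindle, by 0.54. Kif23, a kinesin of the central spindle, differed by -0.23, the most negative value of all members. T-ALL 1 was far below the rest in this gene, at 10.20, and the other 2 probes of Kif23 gave 0.55 and 0.09. Racgap1, its partner in the centralspindlin complex, was dim and differed by 0.08. Kif22, a chromokinesin that moves chromosome arms, differed by 0.39, and Prc1, which bundles midzone microtubules, by 0.23. Kif11, the motor that pushes spindle poles apart, differed by 0.21 and the microtubule binder Nusap1 by 0.17.

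Among the genes of chromosome structure and cohesion, Cdca5 (sororin, which protects cohesin) had the smallest adjusted p of all members. Its grafts were at 9.35, 9.15, 9.92 and 9.21 and its T-ALL ran from 9.81 over 9.97 to 10.56. The difference was 0.66 ± 0.17 (SE; adjusted p = 0.0790 by limma). Espl1, separase itself, differed by 0.71, the condensin subunits Ncapd2 by 0.41 and Smc4 by 0.20, and Top2a, which untangles sister DNA, by 0.39. The dimmer probes of Top2a gave 0.945 and 0.24, and the dimmer probe of Smc4 gave -0.29. Ncapg, near background, differed by -0.08. Mki67 had the widest spread: 9.70, 9.64, 12.54 and 9.72 on the grafts, and 9.59, 12.09, 12.67, 9.77, 10.36, 11.40 and 11.11 on T-ALL 1 to 7. T-ALL 1, 4 and 5, the arrays with the lower erythroid means, were the 3 lowest T-ALL, and the groups overlapped in full. The difference of 0.60 ± 0.61 (SE; adjusted p = 0.672 by limma) is no larger than its error. Of the genes that act with the anaphase-promoting complex, Cdc20 differed by 0.59, with 4 probes between 0.59 and 0.84, and the dim Ube2c, its ubiquitin-conjugating enzyme, by -0.06.

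**Figure D4:**
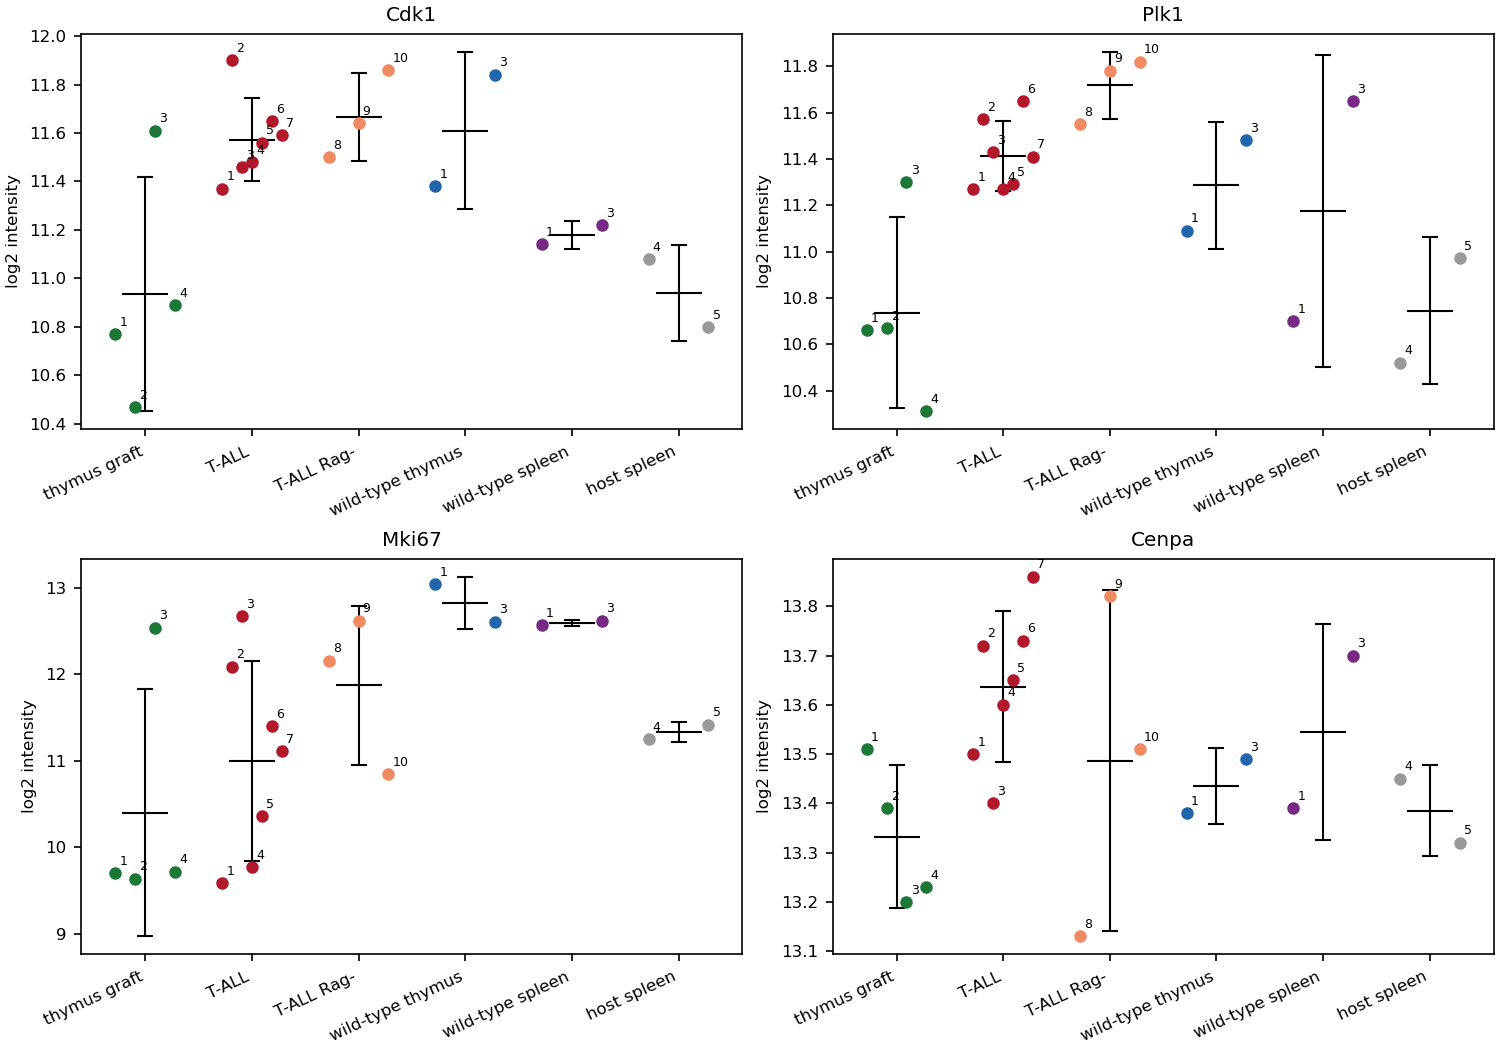
Log2 intensity of Cdk1, Plk1, Mki67 and Cenpa on each array, by label, with a line at the group mean and bars of 1 SD. Graft 3 is the only graft in the T-ALL range for Cdk1 and Plk1, Mki67 spreads the T-ALL from 9.59 to 12.67, and Cenpa has graft 3 lowest.

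Graft 3 decided the count of calls. Without it, 12 of the 32 members rose in T-ALL against the other 3 grafts, while 3.45% of all genes did. They were Cdk1, Plk1, Aurka, Mad2l1, Aurkb, Cdca8, Kif22, Kif2c, Kif4, Cdca5, Espl1 and Cdc20. Cdk1 was then 0.86 ± 0.15 higher (SE; adjusted p = 0.00401 by limma) and Kif4 1.09 ± 0.27 higher (SE; adjusted p = 0.0188 by limma). Leaving out the highest graft raises the difference by its construction, so these calls describe grafts 1, 2 and 4 and not the label. Leaving out any other single array of the groups gave 0 of 32. Within chip 1, which held grafts 1 and 2 with T-ALL 1 to 3, the median difference of the 32 was 0.66. Within chip 2, which held grafts 3 and 4 with T-ALL 4 to 6, it was 0.16. On chip 2 the difference was positive in 19 of 32 members. It turned negative in Bub1b, Cenpf, Incenp, Kif11, Mki67, Ncapd2, Nusap1, Smc4 and Top2a, at -0.62 for Mki67 and -0.67 for Smc4, and Kif23, Ccna2, Ncapg and Ube2c were negative there as over all arrays.

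**Figure D5:**
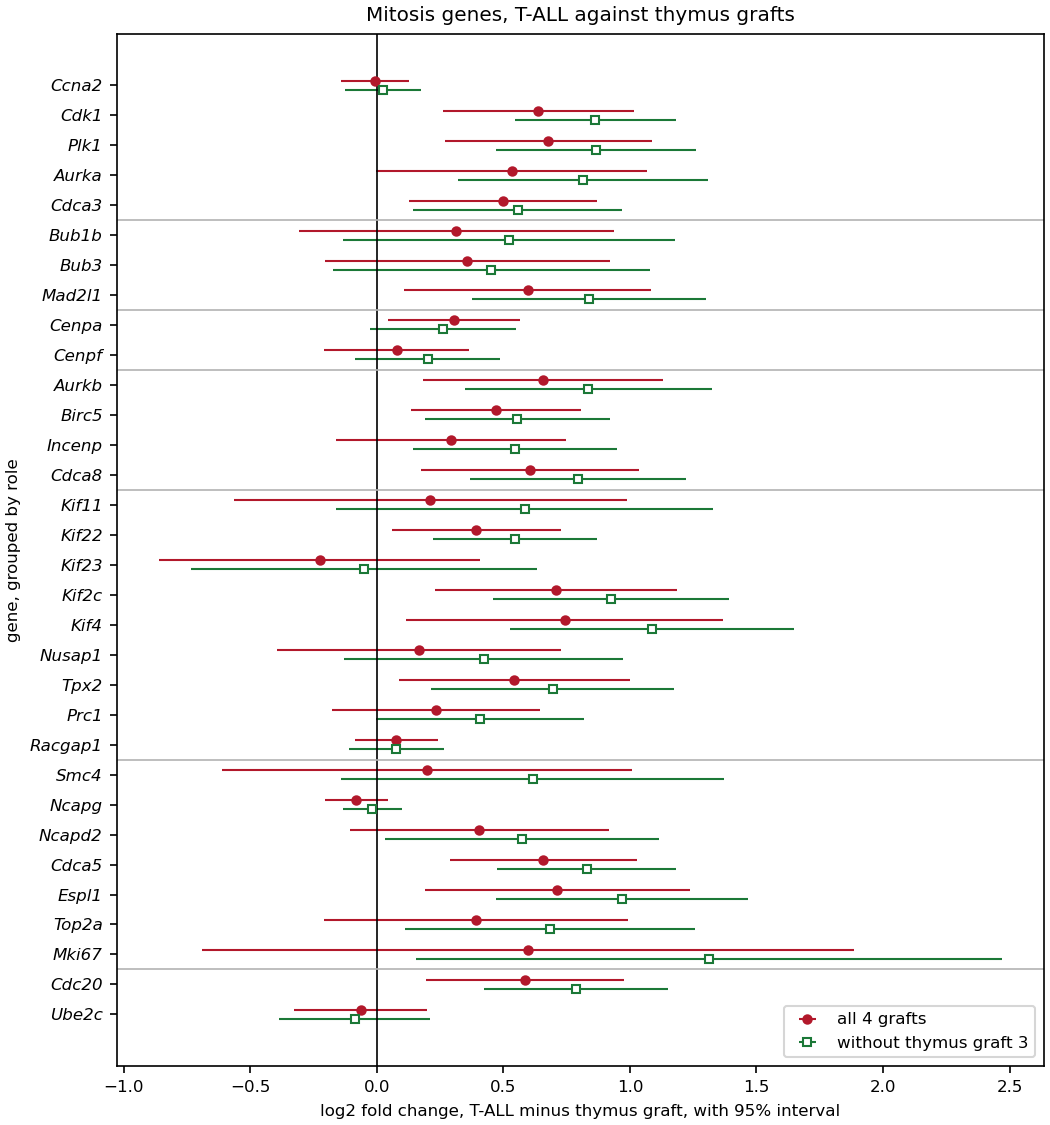
Log2 difference of T-ALL minus thymus graft for each measured mitosis gene, grouped by role, with its 95% interval, from all 4 grafts (filled) and without thymus graft 3 (open). Kif4 is at 0.74 with all grafts and 1.09 without graft 3, and Kif23 at -0.23 and -0.05.

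Of 60 further mitosis genes, 54 were measured, 47 were higher on average in T-ALL and 0 passed the test (limma; 17 with an unadjusted p below 0.05 were higher and 1 lower), with a median of 0.27. All 28 measured S phase genes were higher on average, with a median of 0.59, and 0 passed (20 higher at an unadjusted p below 0.05 by limma). Of all genes, 7.64% were higher and 9.3% lower at that unadjusted level, and without graft 3, 3.45% rose and 5.28% fell. Without graft 3, 9 of the 54 and 20 of the 28 rose, led among the S phase genes by Chaf1b (1.41), Gins2 (1.29) and Mcm10 (1.25), which load histones and start replication forks. Among the regulators of these genes, Mybl2 differed by 0.94, Foxm1 by 0.59 and E2f1 by 0.58, with 0 of 14 past the test (limma; 3 higher and 2 lower at an unadjusted p below 0.05). Without graft 3, Mybl2 rose by 1.12, E2f1 by 0.88 and Foxm1 by 0.86, and E2f2 fell by 1.11. The same fit without graft 3 also moved other lists: Hbb-b1 and Hba-a1 of 11 erythroid genes rose, C1qb and Vcam1 of 13 macrophage genes rose, and Cd4, Rag2 and Cd1d1 of 11 double-positive thymocyte genes fell.

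Between the Rag- T-ALL and the other T-ALL, none of these genes passed the test. By limma, 0 of 32 passed, against 0% of all genes, and 1 of 32 (Ccna2, near background, 0.16 higher) had an unadjusted p below 0.05, against 2.75% of all genes called higher that way. The difference was positive in 23 of 32 members, against 52.5% of all genes, with a median of 0.09 that ran from 0.06 to 0.13 when 1 array was left out. All 7 acinar genes were higher on average in the Rag- T-ALL at an unadjusted p below 0.05 by limma, with a median of 1.31 and 0 past the adjusted threshold. Their part in the mitosis values was not tested. Mki67 was at 12.16, 12.62 and 10.85 on Rag- arrays 8 to 10, a difference of 0.88 with a 95% interval from -0.54 to 2.30, which allows a difference of either sign. For Cdk1 the interval ran from -0.32 to 0.51 and for Top2a from -0.67 to 0.65. Rag- arrays and T-ALL 7 were on chip 3, and with chip as a fixed term the median was -0.14. That fit sets the Rag- arrays against T-ALL 7 alone, whose mitosis mean was 10.76.

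Set against the grafts, the Rag- T-ALL were higher on average in all 32 genes, against 52.4% of all genes, with a median of 0.48. By limma, 0 of 32 passed, against 0.0157% of all genes, and 12 had an unadjusted p below 0.05, all higher, against 8.1%. The graft arrays are those of the previous comparison, so the results are not independent. Plk1, at 11.55, 11.78 and 11.82 on Rag- arrays 8 to 10, lay above every graft, with a difference of 0.98 ± 0.24 (SE; adjusted p = 0.119 by limma). Cdca8 and Kif2c also lay above every graft, at 0.91 and 1.03, so 3 of 32 members did not overlap, against 7.18% of all genes. Leaving out graft 3, the highest graft, again raises the difference by its construction. Without it, 14 members rose, against 3.98% of all genes, calls that describe grafts 1, 2 and 4 and not the label. They were Cdk1, Plk1, Aurka, Mad2l1, Aurkb, Incenp, Cdca8, Kif2c, Kif4, Tpx2, Cdca5, Espl1, Mki67 and Cdc20, with Mki67 2.19 ± 0.65 higher (SE; adjusted p = 0.0453 by limma). In the same fit the erythroid list had a median of 3.01, with Hba-a1, Hbb-b1 and Tfrc of 11 genes risen, and the macrophage list a median of 1.65, with Vcam1 of 13 risen. Cd4, Rag2 and Cd1d1 of 11 double-positive thymocyte genes and Cd247 of 9 T cell receptor complex genes fell, against 4.85% of all genes. The medians of these 2 lists were -1.49 and -0.71. The part of these cells in the mitosis values was not tested. With chip as a random block, 7 members rose, against 2.44% of all genes: Cdk1, Plk1, Aurkb, Cdca8, Kif2c, Tpx2 and Cdca5. The estimated correlation within chips was negative, at -0.12, and with it 605 genes in all were called in either direction in place of 2. No chip held both groups, so chip and group cannot be told apart.

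Against wild-type thymus, which shows how graft thymus compares with normal thymus, the grafts were lower on average in 30 of 32 genes, with a median of -0.38, while 51.3% of all genes were higher in the grafts. By limma, 0 of 32 passed, against 0.0787% of all genes, and 7 had an unadjusted p below 0.05, all lower, against 10.2% of all genes. They were Cdk1, Cdca3, Cdca8, Kif2c, Kif4, Tpx2 and Mki67. Mki67 was at 13.04 and 12.61 on the wild-type arrays, above all 4 grafts, with a difference of -2.43 ± 0.84 (SE; adjusted p = 0.144 by limma). Cdca3 and Tpx2 did not overlap either, so 3 of 32 were separate, against 8.01% of all genes. Leaving out the highest graft lowers the graft mean by its construction, so calls made that way describe grafts 1, 2 and 4 and not the label. Without graft 3, 4 members fell, against 3.52% of all genes: Cdk1 differed by -0.90, Kif2c by -1.08, Kif4 by -1.36 and Mki67 by -3.14. Of all genes, 5.16% rose in that fit. Other cell types moved more there: 9 of 13 macrophage and 3 of 11 erythroid genes fell, with medians of -3.62 and -3.47, and 7 of 9 T cell receptor complex and 6 of 11 double-positive thymocyte genes rose, with medians of 2.29 and 2.46. Their part in the mitosis values was not tested. The median rested on which wild-type array was kept: it was -0.71 without wild-type thymus 1, the array rich in granulocyte RNA, and -0.06 without wild-type thymus 3. Strain and chip also differ between these groups, and their part cannot be told apart from that of the graft.

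Host spleens, which carried thymocyte RNA, had mitosis means of 10.23 and 10.34, inside the range of the grafts only through graft 3, at 10.71. Grafts 1, 2 and 4 were lower, at 10.06, 9.84 and 9.91. Of the 32 genes, 24 were higher on average in host spleen, against 41.8% of all genes, with a median of 0.10 against -0.05 for all genes. By limma 0 passed, against 0.323% of all genes. Those with an unadjusted p below 0.05 were Ccna2, Ncapg and Tpx2, all higher, which is 3 of 32 against 4.74% of all genes. Ccna2 and Ncapg were below the background threshold on every graft. In host spleens 4 and 5 they were barely above it, Ccna2 at 7.13 and 7.17 and Ncapg at 7.17 and 7.14. Ncapg was above it on no other array, so it passed the filter through the host spleens alone. Only Tpx2 thus had a measured difference among these genes. Tpx2 stood at 9.19 and 9.27 in the host spleens and at 8.04, 7.93, 8.54 and 7.84 in the grafts, a difference of 1.14 ± 0.30 (SE; adjusted p = 0.139 by limma). Espl1 went the other way without overlap, at 8.60 and 8.50 in host spleen and from 8.64 upwards in the grafts, a difference of -0.61. Without overlap, 3 of 32 members (Ccna2, Ncapg and Tpx2) were thus higher, against 10.2% of all genes, and 1 of 32 lower, against 13.3%. Of the higher members, only Tpx2 was above background in both groups. Leaving out 1 array moved the median between 0.01, without graft 2, and 0.29, without graft 3. It was 0.21 without host spleen 4 and 0.06 without host spleen 5. Labelled tissue, strain and chip all differ between these groups, and their parts cannot be told apart.

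Between the thymus and the spleen arrays of wild-type mice, no member passed the test. By limma 0 of 32 passed, against 0% of all genes, and 0 had an unadjusted p below 0.05, against 5.22%. Thymus was higher on average in 18 of 32 members, against 51.6% of all genes, and Cdk1, Cdca3, Smc4 and Ncapg, 4 of 32, did not overlap and were higher in thymus, against 11.4%. Ncapg was below the background threshold on all of these arrays, at 6.93 and 6.90 in thymus and 6.71 and 6.78 in spleen, so its difference is not a measured one. Smc4 was at 8.59 and 8.71 in thymus and at 8.08 and 8.27 in spleen. The median was 0.10, the largest difference was 0.54 for Top2a and the most negative -0.49 for Aurka. In other members the arrays of a label stood further apart than the labels did. Bub1b was at 10.88 and 12.10 in thymus and at 11.04 and 12.51 in spleen, and Kif11 at 8.88 and 10.45 and at 8.84 and 9.93. Under both labels array 1, with a granulocyte mean of 14.30 for thymus and 14.35 for spleen, was the lower array in Bub1b and Kif11. In Mki67 array 1 was the higher in thymus, and the spleen arrays stood at 12.57 and 12.62. The sign of the median depended on single arrays: it was -0.14 without wild-type thymus 3 and -0.21 without wild-type spleen 1, but 0.28 without wild-type thymus 1 and 0.24 without wild-type spleen 3.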

How the data were processed

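Total RNA was measured on 20 mouse arrays. Per the labels' protocols, RNA was extracted with RNAzol B, and biotin-labelled cRNA was made from it (Ambion MessageAmp). The log2 intensities used here are those the authors deposited; they had been quantile normalized before deposit, read from the values, since the arrays' ranked values lie within 0.01 of each other. Software and background step are not given in the sources used here. Another deposited table holds 20 columns of values before normalization whose names match no label, and it was not used.

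Background mode was 6.78 with an SD of 0.113, and genes had to be above 7.12 (mode plus 3 SD) on at least 2 arrays. Probes were named from the platform annotation, updated through RefSeq symbols, and the brightest probe stood for a gene. The model, with a mean for each label and all 20 arrays, was fitted in R 4.3.3 by limma 3.58.1 (14 residual degrees of freedom, prior 3.13, intensity trend), with Benjamini-Hochberg adjustment at 0.05 over the 12710 genes of each comparison. The script was tested on simulated data. Chips (1 to 4, from the labels) were tried as blocks; wild-type and host arrays were all on chip 4. Other backgrounds, centring, filters, probes and left-out arrays were tried. Any listed gene could be named; within a role the largest and smallest differences and all past the test were named. Genes of the comparison lists were named only if past the test (the 3 most changed where over 6), except regulators and bright markers of other cell types. The members and lists were chosen with earlier results of these data known. Promoters came from RefSeq (GRCm38.p6). Figures used matplotlib 3.10.9.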

Additional observations from a re-analysis of the deposited data

Results flagged for a closer look

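In 4 genes, graft 3 stood far from the other 3 grafts: Mki67 at 12.54 against a next value of 9.72, Kif11 at 10.54 against 9.14, Cenpf at 7.84 against 7.36 and Bub3 at 9.18 against 8.82. Among the T-ALL, Kif23 on array 1 was far below the rest, at 10.20 against 11.28, and Kif22 on array 7 far above, at 12.18 against 11.89. These 6 came from 68 groups of 4 to 7 arrays examined by Dixon's criterion, of which chance gives about 1 in 20. The genes share arrays, so the 4 on graft 3 are not independent of each other.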

How the results depend on the processing

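The 6 comparisons were repeated with another background step, another centring, no or a stricter intensity filter, averaged probes, robust moderation, only the arrays compared, chip as a block, single chips and each array left out. The count of members past the test stayed at 0 in every such fit but 4. Without graft 3 it was 12 for T-ALL against grafts, 14 for Rag- T-ALL against grafts and 4 for grafts against wild-type thymus, because the remaining grafts are lower and closer together. With chip as a random block it was 7 for Rag- T-ALL against grafts, whose cause was not tested. Leaving out 1 array at a time gave counts of 0 to 12, 0 to 14 and 0 to 4 in these comparisons and 0 to 0 in the others. It moved the median difference of the members from 0.32 to 0.58 for T-ALL against grafts, from 0.06 to 0.13 for Rag- T-ALL against T-ALL and from 0.31 to 0.72 for Rag- T-ALL against grafts. The median ran from -0.71 to -0.06 for grafts against wild-type thymus, from 0.01 to 0.29 for host spleen against grafts and from -0.21 to 0.28 for wild-type thymus against wild-type spleen. With chip as a fixed term, the median of Rag- T-ALL against T-ALL was -0.14 in place of 0.09. In that fit T-ALL 7, the only other array on chip 3, alone stands for the T-ALL.

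Single members of T-ALL against grafts changed sign as follows. On chip 2 alone, where graft 3 is 1 of 2 grafts, Bub1b was at -0.15, Cenpf at -0.043, Incenp at -0.22, Kif11 at -0.32, Mki67 at -0.62, Ncapd2 at -0.025, Nusap1 at -0.15, Smc4 at -0.67 and Top2a at -0.16. Averaging probes gave 0.14 for Kif23 and -0.046 for Smc4, where probes of a gene disagree. Leaving out 1 array moved Smc4 between -0.0014, without graft 1, and 0.62, without graft 3. Ccna2, near 0 and near background, was at 0.0018 after centring and at 0.0033 on chip 1 alone, and it ran from -0.027 to 0.024 when 1 array was left out, positive without T-ALL 1, T-ALL 5 or graft 3.

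The wild-type thymus and spleen arrays share the label numbers 1 and 3. Their deviations from the group means correlated at 0.68 over 12710 genes, but with 2 pairs and no word in the labels on what the number marks, they share only a number. With the number as a replicate block, the count of members stayed at 0, the median at 0.098, and 3 of 12710 genes were called in place of 0.

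Members close to the threshold, such as Ccna2, Ncapg, Racgap1 and Ube2c, have too little signal for a change to show.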
